A study of Mus musculus with 10 samples.

Results

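The immunity-related GTPases (IRG proteins) are a mouse family of interferon-inducible GTPases, and 9 of their genes were followed in RNA-seq of CD34- hematopoietic stem cells (HSCs). The members were Irgm1, Irgm2, Igtp, Iigp1, Tgtp1, Tgtp2, Ifi47, Gm4841 and Gm4951, out of 33393 genes in the files. The file symbols gave 8 of them, and Gm4951, which the files list under a clone name, was found by its gene identifier. These genes were chosen by their measured log2 difference between the genotype labels in these libraries, so that difference is described for them without a test.

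RNA was sequenced from 10 libraries, each from HSCs of an individual C57BL/6 mouse aged 8 weeks. Cells were sorted from bone marrow (femur by the series' design text, femur and tibia by the study's methods) as Lin- Sca-1+ c-Kit+ CD34- Flt3-. All mice carried Reg1flox/flox, floxed alleles of the gene for Regnase-1 (Zc3h12a), an RNase that degrades mRNAs of inflammatory genes, and the 5 control mice carried nothing else. The 5 case mice also carried Vav1-iCre and are called Reg1Δ/Δ by their label, Cre being driven by Vav promoter elements in blood cells generally and not in HSCs alone. The sample names form 2 sets, taken here as 2 experiments, with 3 controls and 3 case libraries in the first and 2 and 2 in the second.

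The targeted gene went against the label. Zc3h12a was at 1.83, 1.28 and 1.603 TPM (a relative abundance corrected for transcript length and scaled to the same total in each library) in first-experiment controls and at 3.54, 2.08 and 2.51 TPM in the case libraries. In the second experiment it was at 1.48 and 6.07 TPM in the controls and at 10.3 and 8.52 TPM in the case libraries. It was therefore higher in every case library than in every control of the same experiment (log2 difference 0.83, SE 0.28, adjusted p = 0.0314 by limma). The gene-level value sums whole transcripts, and which exons Cre removes is not given in the sources used here, so it does not show whether the deletion took place. All directions below are those of libraries labelled Reg1Δ/Δ against libraries labelled control.

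The libraries differed in more than the genes followed here. Of the stem cell markers 9 passed the filter on low values, Fgd5 only through the controls, and of the other 8, 0 were called higher and 7 lower in the libraries labelled Reg1Δ/Δ, among them Hlf (117 to 1.87 TPM) and Mecom (36.5 to 2.18 TPM), while Kit went from 252 to 89.8 TPM and Ly6a, which encodes Sca-1, from 88.0 to 222 TPM without passing the test (adjusted p = 0.155 by limma). Summed B lineage markers ran from 131 to 1016 TPM in controls and from 2.34 to 18.2 TPM in the libraries labelled Reg1Δ/Δ, with 6 of 6 tested lower. Monocyte and macrophage markers summed to between 229 and 873 TPM in controls and to between 17.7 and 40.4 TPM, with 5 of 5 tested lower, and neutrophil markers to between 3042 and 13124 TPM and between 309 and 968 TPM, with 6 of 8 lower. Summed T and NK cell markers were at 81.7 to 284 TPM and 36.1 to 146 TPM, with 2 of 2 tested lower. Most of that sum was Nkg7 (mean 173 TPM in controls and 89.9 TPM), while Cd3e, Cd3d and Cd3g averaged 0.984, 1.14 and 1.84 TPM in controls. Summed megakaryocyte markers were at 104 to 459 TPM and 25.6 to 103 TPM, with 4 of 5 lower and 1 higher. Dendritic cell markers, none of which was tested, were at 0.894 to 8.25 TPM and 0.0755 to 0.695 TPM. Cd34 and Flt3, against which the cells were gated, were both lower (sum 62.9 to 270 TPM in controls and 10.7 to 22.01 TPM). Of 6 erythroid markers Klf1, Epor and Car1 were higher and 2 globin genes lower. Summed erythroid markers ran from 1055 to 3957 TPM in controls and from 6742 to 8718 TPM in the libraries labelled Reg1Δ/Δ. Car1 alone went from a mean of 1739 to 7265 TPM. In bulk RNA a change in the share of cells of one kind and a change in RNA per cell cannot be told apart, and the part of these marker shifts in the IRG values was not tested. Protein-coding transcripts held 46.2% to 49.1% of TPM in the first experiment and 73.5% to 81.1% in the second, so differences between the labels are given within an experiment or from a fit with experiment as a term, and levels set across experiments carry this gap. One of the second-experiment libraries labelled Reg1Δ/Δ carries the header name of the other, but 51745 transcript values differ between them and both were kept.

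IRG proteins are part of cell-autonomous defence. In mouse cells exposed to interferon-γ, interferon regulatory factors and other transcription factors switch the genes on, and the GTPases gather on vacuoles that hold intracellular parasites and bacteria such as Toxoplasma and Chlamydia. Irgm1, Irgm2 and Igtp (Irgm3) form the GMS group, named after an unusual residue in the nucleotide-binding motif. These proteins sit on the cell's own membranes and hold the effectors, the GKS group, in the inactive state. Effectors include Iigp1 (Irga6), Tgtp1 and Tgtp2 (Irgb6 copies) and Ifi47 (Irgd), which load onto and disrupt the vacuole. Irgm1 is also known in HSCs, where mice lacking it have stem cells that cycle too much and renew poorly under interferon signalling.

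The family is laid out in clusters. Irgm1 (chr11:48861968-48871683, minus strand, GRCm38), Tgtp1 (chr11:48985327-48994172, minus), Tgtp2 (chr11:49057194-49064206, minus) and Ifi47 (chr11:49076587-49096974, plus) lay within 235 kb. Igtp (chr11:58199556-58207591, plus) and Irgm2 (chr11:58199618-58222782, plus) overlapped on the same strand within 23.2 kb, and Iigp1, Gm4841 and Gm4951 lay within 181 kb of each other on a different chromosome. RefSeq promoters of build GRCm38.p6, the 250 bases before and 50 after each start site, were at hand for 6 of the 9 members, all on chromosome 11. They were searched on both strands for the core of the interferon-stimulated response element (ISRE), a doubled motif bound by interferon regulatory factors, and for TTCNNNGAA, the core of the interferon-γ-activated site (GAS). The first stood in 5 of 6 member promoters and in 3.44% of all 32851 promoters, the second in 4 of 6 and in 8.30%, and both in 4 of 6 and in 0.454%. In those 4 promoters the motifs lay in the same order on the strand of the gene and at the same spacing, 2 bases apart. The sites below are shown because this arrangement is what 4 of the members share in their promoters. Capitals mark the GAS core and then the response element core.
Tgtp1: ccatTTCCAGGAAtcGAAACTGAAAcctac
Tgtp2: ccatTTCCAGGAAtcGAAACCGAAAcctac
Igtp: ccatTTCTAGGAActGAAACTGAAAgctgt
Irgm2: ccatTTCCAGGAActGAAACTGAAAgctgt

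They lie at chr11:48992309-48992338 (minus strand), chr11:49064268-49064297 (minus), chr11:58199507-58199536 (plus) and chr11:58214898-58214927 (plus), with the first capital 88, 81, 45 and 75 bases before the start site. Start sites here are those of the RefSeq promoters, which can differ from the ends of the gene spans given above. The sites of Tgtp1 and Irgm2, and that of Irgm1 below, lie inside those spans. Over the 30 bases shown, Tgtp1 and Tgtp2 shared 29, Igtp and Irgm2 shared 29, and members of different pairs shared 23 to 25. The joined pattern of the GAS core, any 2 bases and the ISRE core, with no overlap and written down after these sites were seen, stood in 5 of the 32851 promoters (0.0152%). The promoters holding it were those of the 4 members and of Gm12185, another locus of the family that lies among them. Irgm1 held no GAS core in its window but overlapping response element cores, the first of them at chr11:48871431-48871460 (minus strand), 30 bases before the start site, with the core in capitals.
Irgm1: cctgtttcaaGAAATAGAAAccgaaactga

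Neither pattern stood in the Ifi47 window, which says only that these letters are not within those 300 bases. Matches of letters are not measurements of binding.

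All 9 members were higher in every library labelled Reg1Δ/Δ than in every control of the same experiment. Across all 12874 genes tested (those reaching 1 TPM in 5 or more of the 10 libraries) such separation in the higher direction held for 12.7%, and separation in the lower direction for 31.4%; the members were chosen for this difference, so nothing is read from their count. In the first experiment the ratio of mean TPM ran from 4.02 for Irgm2 to 22.5 for Iigp1, and in the second from 2.99 for Ifi47 to 14.3 for Iigp1. The median log2(TPM + 1) difference was 2.72 over the members and −0.25 over all tested genes. By limma 15% of all genes were higher and 37.9% lower at an adjusted p under 0.05. Ranked by log2 difference among the 12874 genes, Iigp1 was 1, Gm4841 4, Igtp 6, Tgtp1 11, Gm4951 13, Tgtp2 50, Irgm1 52, Ifi47 67 and Irgm2 71, so Irgm2 marks the inner edge of the set.

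**Figure D1:**
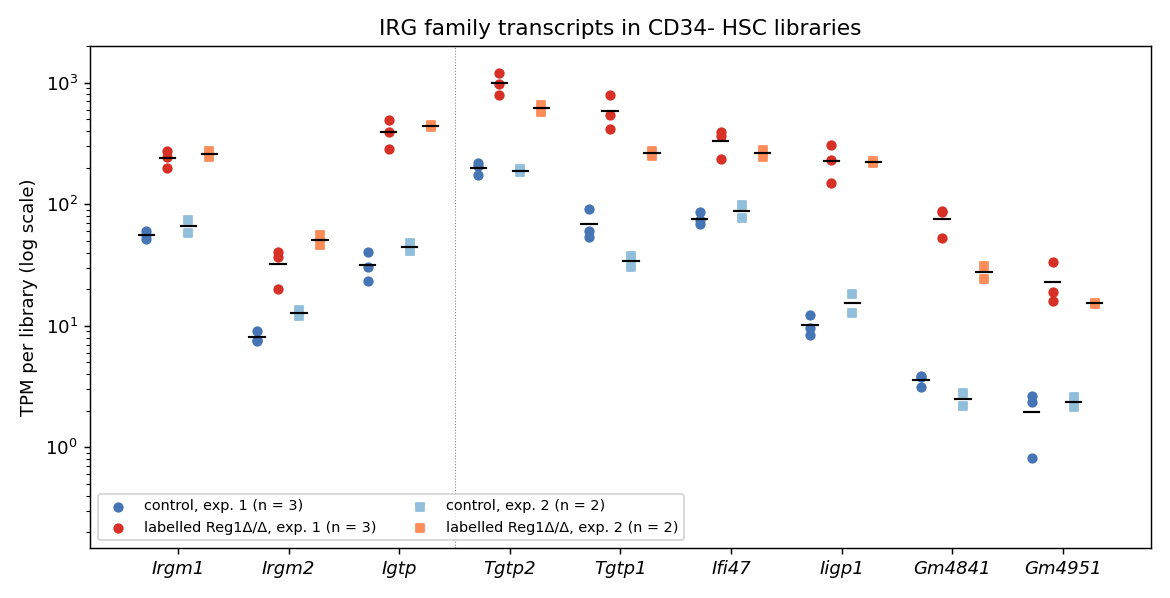
TPM of each IRG member in each library on a log axis; points are libraries, short lines are group means, and the dotted line parts the GMS regulators on the left from the other members. In every member all libraries labelled Reg1Δ/Δ sit above all controls of the same experiment, from Tgtp2 at the top to Gm4951, which has the lowest control value of 0.824 TPM.

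Among the GMS regulators Igtp differed most. Igtp, a regulator on the endoplasmic reticulum and lipid droplets, was at 40.2, 23.5 and 30.5 TPM in first-experiment controls and at 495, 284 and 394 TPM in the libraries labelled Reg1Δ/Δ. In the second experiment it was at 40.9 and 48.0 TPM in controls and at 450 and 435 TPM in the libraries labelled Reg1Δ/Δ. The groups were far apart, with ratios of means of 12.4 and 9.95 and a log2 difference of 3.47 (SE 0.19). Irgm1, the regulator best known for its part in autophagy and HSC function, was at 60.2, 52.0 and 55.5 TPM and then 58.1 and 73.6 TPM in controls. Its levels in the libraries labelled Reg1Δ/Δ were 273, 200 and 242 TPM and then 275 and 244 TPM. Irgm1 thus had ratios of 4.26 and 3.95, and a log2 difference of 2.03 (SE 0.12), the smallest standard error of the family. Irgm2, a regulator at the Golgi, was the lowest of the 3, at 9.12, 7.58 and 7.46 TPM and 13.5 and 12.02 TPM in controls. In the libraries labelled Reg1Δ/Δ Irgm2 was at 40.1, 19.9 and 37.0 TPM and at 56.2 and 45.8 TPM, with ratios of 4.02 and 3.99 and a log2 difference of 1.86 (SE 0.19). Summed over the 3 regulators, TPM was 95.3 ± 13.3 (SD, n = 3) and 123 ± 14.9 (SD, n = 2) in controls and 662 ± 152 (n = 3) and 753 ± 39.6 (n = 2) in the libraries labelled Reg1Δ/Δ, so the sums did not overlap.

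Iigp1 had the largest log2 difference of all genes tested. This effector, which loads onto the parasite vacuole, was at 12.3, 8.43 and 9.67 TPM and at 18.2 and 12.9 TPM in controls. In the libraries labelled Reg1Δ/Δ it was at 304, 148 and 233 TPM and at 225 and 218 TPM. The lowest of these is several times the highest control, and the log2 difference was 4.10 (SE 0.22). Its neighbours on chromosome 18, Gm4841 and Gm4951, are family loci whose protein roles are little described. Gm4841 was at 3.11, 3.81 and 3.87 TPM and at 2.18 and 2.80 TPM in controls, and at 87.2, 52.3 and 86.4 TPM and at 30.8 and 24.4 TPM in the libraries labelled Reg1Δ/Δ. The groups were separate in both experiments, with ratios of means of 20.9 and 11.1 and a log2 difference of 3.63 (SE 0.22). Gm4951 was at 2.34, 0.824 and 2.67 TPM and at 2.14 and 2.59 TPM in controls, and at 33.5, 16.1 and 18.98 TPM and at 15.5 and 15.02 TPM in the libraries labelled Reg1Δ/Δ. It was the only member under 1 TPM in any library, reaching that level in 4 of 5 controls against 5 of 5 for the other members, and its log2(TPM + 1) difference of 2.72 (SE 0.26) understates the ratios of 11.7 and 6.45 because the added 1 is large beside its control level.

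Tgtp2, Tgtp1 and Ifi47, the effectors of the proximal chromosome 11 cluster, held most of the family's RNA. Tgtp2 was at 219, 172 and 205 TPM and at 193 and 183 TPM in controls. In the libraries labelled Reg1Δ/Δ it was at 1192, 791 and 966 TPM and at 651 and 574 TPM. Its ratios of means, 4.94 and 3.26, were moderate beside those of Iigp1, and its log2 difference was 2.05 (SE 0.16). Tgtp1 was at 90.8, 53.7 and 59.9 TPM and at 37.6 and 30.5 TPM in controls, and at 787, 414 and 538 TPM and at 273 and 251 TPM in the libraries labelled Reg1Δ/Δ. The log2 difference of Tgtp1 was 3.0 (SE 0.20). These values are uncertain gene by gene, since the genes are near-identical copies: of the 31-base stretches in its transcripts, 83.2% of those of Tgtp1 were also in Tgtp2, and 89.2% of those of Tgtp2 in Tgtp1. Added together, Tgtp1 and Tgtp2 were at 267 ± 42.1 TPM (SD, n = 3) and 222 ± 12.4 (n = 2) in controls and at 1563 ± 390 (n = 3) and 875 ± 69.4 (n = 2) in the libraries labelled Reg1Δ/Δ, ratios of 5.85 and 3.94. For the other members the shared part was between 2.20% (Irgm1) and 18.4% (Gm4841), with 15.9% for Igtp, all of it shared with the overlapping Irgm2. Ifi47, the remaining GKS effector, was at 85.6, 69.3 and 73.7 TPM and at 98.2 and 77.3 TPM in controls. Its libraries labelled Reg1Δ/Δ were at 391, 234 and 366 TPM and at 281 and 245 TPM. Ifi47 had the smallest ratio of the second experiment, 2.99, against 4.33 in the first, and a log2 difference of 1.87 (SE 0.18).

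The members also moved together among libraries of one group. In the first experiment, replicate 1 of the libraries labelled Reg1Δ/Δ was the highest of its group for 9 of 9 members and replicate 2 the lowest for 9 of 9. In the second, replicate 1 was higher than replicate 2 for 9 of 9. Of the first-experiment controls, replicate 1 was the highest for 7 of 9 and replicate 2 the lowest for 7 of 9, while the second-experiment controls were mixed, each being higher for 5 or 4 members. Values of 1 library share their scaling, so this is a description and not 9 separate observations.

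The sum of the 9 members was 454 ± 65.9 TPM (SD, n = 3) and 453 ± 15.2 (SD, n = 2) in the controls of the first and second experiment. It was 2881 ± 721 TPM (n = 3) and 2155 ± 145 (n = 2) in the libraries labelled Reg1Δ/Δ, with ratios of means of 6.34 and 4.75. The highest control sum was 523 TPM and the lowest in a library labelled Reg1Δ/Δ was 2052 TPM. Because the ratios were unequal, the makeup of this RNA differed. Tgtp2 was the largest part in all 4 groups, at 43.9% and 41.5% of family TPM in controls and at 34.4% and 28.4% in the libraries labelled Reg1Δ/Δ. Igtp made up 6.83% and 9.84% in controls and 13.5% and 20.6% in the libraries labelled Reg1Δ/Δ, and Iigp1 2.22% and 3.42% against 7.80% and 10.3%. Irgm1 went the other way, from 12.4% and 14.6% to 8.41% and 12.1%, and so did Ifi47, from 16.8% and 19.3% to 11.5% and 12.2%.

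**Figure D2:**
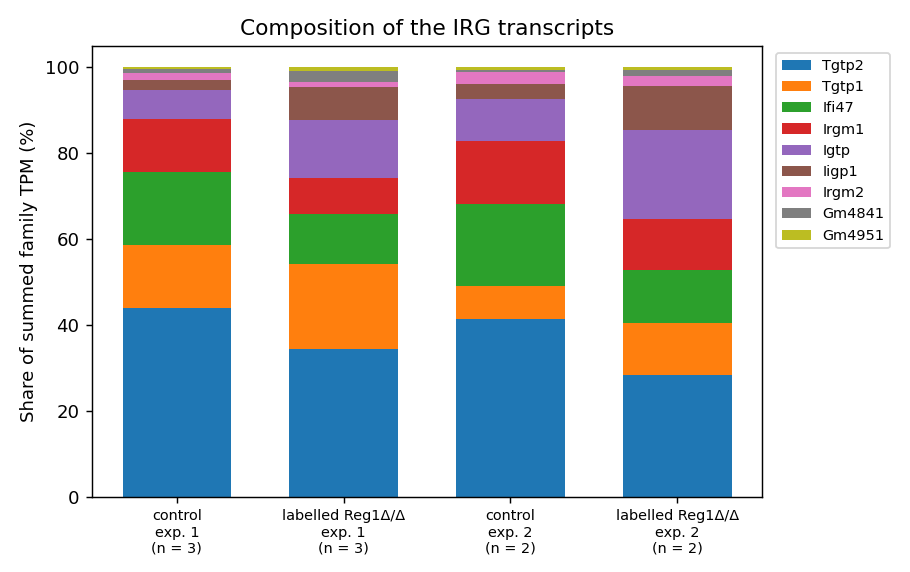
Share of the summed TPM of the 9 members, in percent of each library's own sum and averaged over the group, for the controls and the libraries labelled Reg1Δ/Δ of each experiment. The Tgtp2 block is smaller and the Igtp and Iigp1 blocks are larger in the libraries labelled Reg1Δ/Δ of both experiments.

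Ordered by mean TPM, the controls ran Tgtp2, Ifi47, Irgm1, Tgtp1, Igtp, Iigp1, Irgm2, Gm4841 and Gm4951. The place of Tgtp1 depended on the experiment. It lay above both Irgm1 and Igtp in the 3 first-experiment controls and below both in the 2 second-experiment controls. Every other neighbouring pair of controls kept its order in 5 of 5. In the libraries labelled Reg1Δ/Δ the order was Tgtp2, Tgtp1, Igtp, Ifi47, Irgm1, Iigp1, Gm4841, Irgm2 and Gm4951. There Tgtp1 lay above Igtp, and Gm4841 above Irgm2, in the 3 first-experiment libraries, and both pairs were reversed in the 2 second-experiment libraries. Irgm1 lay above Iigp1 in 4 of 5 libraries. By mean TPM among tested genes, Iigp1 stood at percentile 37.8 in controls and 94.2 in the libraries labelled Reg1Δ/Δ, and Gm4841 at percentiles 10.3 and 78.8.

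Whether the difference was the same size in both experiments is a question the choice of members did not use. By the interaction of label and experiment in limma, 0 of 9 members were called at an adjusted p under 0.05, against 0.443% of all tested genes. The largest change was that of Gm4841, whose log2 differences were 4.02 and 3.03 in the first and second (change −0.99, SE 0.34, adjusted p = 0.297 by limma). The log2 difference was the larger in the first experiment for 8 of 9 members, all but Irgm2, with member medians of 3.01 and 2.27 beside −0.33 and −0.12 for all tested genes. The median change of all tested genes was 0.099, and the share of them larger in the first experiment was not worked out. With 2 libraries a group in the second experiment, the standard errors of these changes ran from 0.25 (Irgm1) to 0.51 (Gm4951), so modest differences between the experiments could not be detected.

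**Figure D3:**
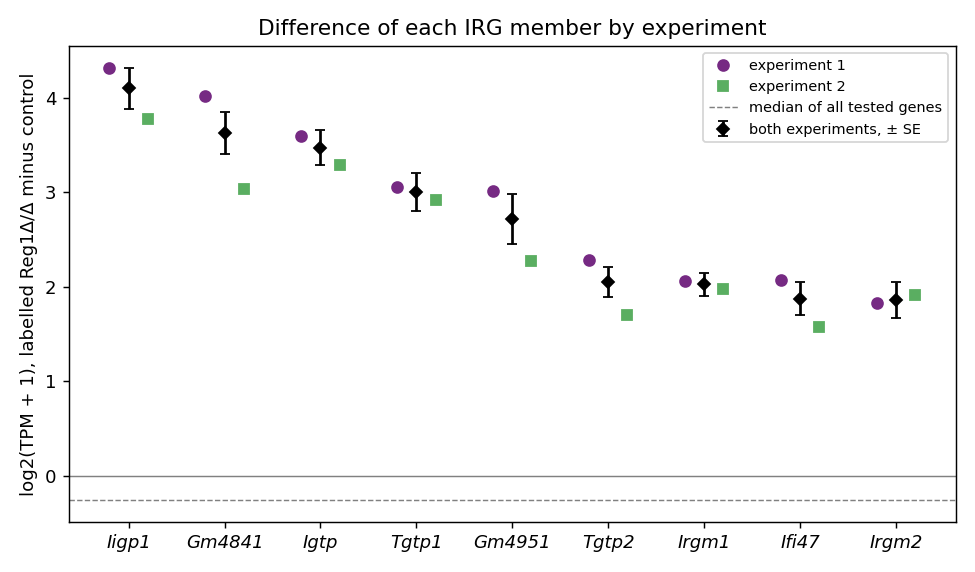
Difference in log2(TPM + 1), libraries labelled Reg1Δ/Δ minus controls, for each member: diamonds with SE from the fit of both experiments, circles the first and squares the second experiment alone. Every value lies above 1.5, against a median of all tested genes of −0.25 (dashed line), and the square is below the circle for 8 of 9 members.

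The level of the family in control HSCs was likewise compared between the experiments. Of the 9 members 0 were higher and 1, Tgtp1, was lower in the controls of the second experiment (log2 difference −0.95, SE 0.30, adjusted p = 0.0269 by limma), where 21.8% of all genes were called higher and 30% lower. This call was lost without replicate 1 of the first-experiment controls and without either second-experiment control, and with quantile normalization 5 members were called higher and 0 lower. The share of all genes called in this contrast under that scaling was not worked out, so nothing is read from those counts. The transcripts behind Tgtp1 behaved unequally. Its 2823-base transcript was at 33.7, 26.6 and 25.0 TPM in the first-experiment controls and at 37.6 and 30.5 TPM in the second, where the groups overlapped. The 764-base transcript was at 57.1, 27.0 and 34.9 TPM in the first and listed at 0 in both controls of the second. The same split appeared in the libraries labelled Reg1Δ/Δ, where the short transcript was at 423, 232 and 304 TPM in first-experiment libraries and at 4.82 and 10.6 TPM in the others. With the full-length transcripts of Tgtp1 and Tgtp2 alone, a setting added after the transcripts were seen, their summed ratios were 5.67 and 4.48.

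Ifi47 showed a like exchange between transcripts that differ little in length. Its 1690-base transcript was at 43.8, 43.9 and 40.2 TPM in the first-experiment controls and at 1e-06 and 11.7 TPM in the second, while the 1773-base transcript was at 32.2, 19.9 and 20.5 TPM and at 89.9 and 59.4 TPM. In the libraries labelled Reg1Δ/Δ the 1690-base transcript was at 320, 184 and 291 TPM and at 93.5 and 68.2 TPM, and the other at 43.6, 27.2 and 37.5 TPM and at 176 and 169 TPM. In both genes the leading transcript thus followed the experiment. For Ifi47 the mix differed by label as well. Its 1690-base transcript held a mean of 56.3% and 7.59% of its TPM in controls of the first and second experiment. In the libraries labelled Reg1Δ/Δ it held 80.0% and 30.6%. Much of the Tgtp2 value was a 370-base processed transcript, so that protein-coding transcripts held 41.6% to 57.6% of its TPM, whereas they held at least 98.6% for Irgm1 and 100% for the other members.

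**Figure D4:**
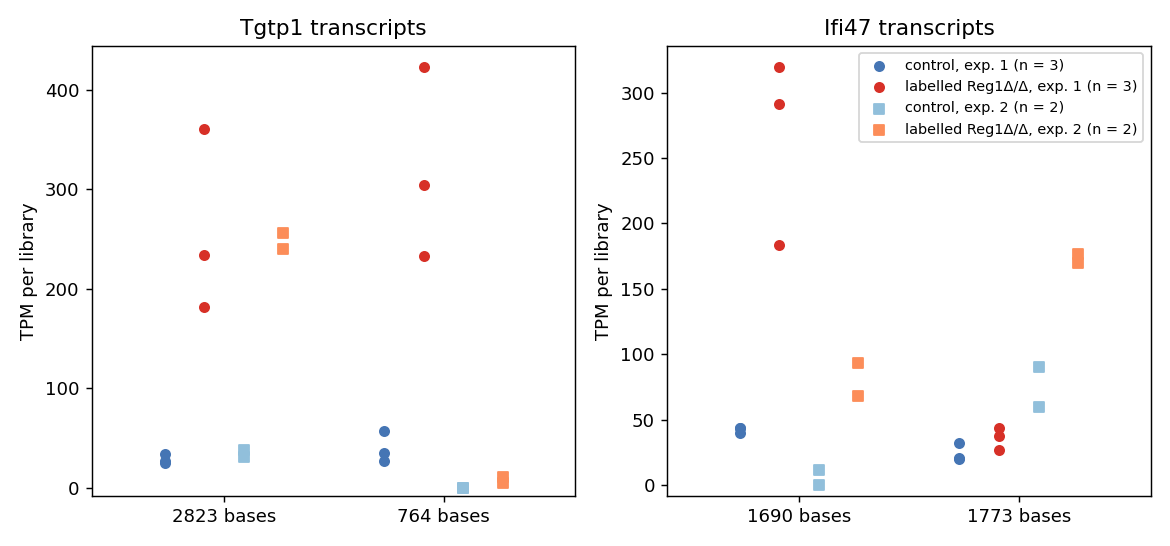
TPM per library of the main transcripts of Tgtp1 (left) and Ifi47 (right), named by length in bases; circles are first-experiment and squares second-experiment libraries, blue controls and red to orange libraries labelled Reg1Δ/Δ. The 764-base Tgtp1 transcript is at 0 in both second-experiment controls and reaches 423 TPM in the first experiment, and the 1773-base Ifi47 transcript is highest in the second experiment.

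Other loci of the family were tested across all genes. Of 8 such loci 6 passed the filter, but F830016B08Rik did so only through the libraries labelled Reg1Δ/Δ and is described without a test. Of the other 5, 2 rose and 2 fell (median log2 difference −0.77), where 15% of all tested genes rose and 37.9% fell, and Gm5431 and the testis gene Irgc1 stayed under 1 TPM in every library. Gm12250 is the gene for Irgb10, an effector that works with the guanylate-binding proteins against bacteria, although the files class it as a processed pseudogene. It was at 17.9, 8.13 and 11.9 TPM and at 23.3 and 22.8 TPM in controls and rose to 273, 163 and 236 TPM and to 259 and 228 TPM (log2 difference 3.78, SE 0.24, adjusted p = 1.73e-06 by limma). Gm12185, whose promoter holds the joined pattern, rose by 2.21 (SE 0.48, adjusted p = 0.00349), although in the second experiment its libraries overlapped, with controls at 2.68 and 23.6 TPM against 45.4 and 20.1 TPM. Its span (chr11:48904656-48992226, minus strand) overlaps that of Tgtp1 on the same strand, and whether its rise is separate from that of Tgtp1 was not tested. F830016B08Rik, next to Iigp1, was under 1 TPM in every control, with 0 TPM listed in both of the second experiment, and between 1.88 and 7.11 TPM in the libraries labelled Reg1Δ/Δ. In the same region as Tgtp1, 9930111J21Rik2 fell by 1.33 on the log2 scale (mean 3.77 to 0.785 TPM), and Irgq, a distant relative without known GTPase activity, fell by 0.80. With quantile normalization neither fall was called, the log2 difference being −0.56 for 9930111J21Rik2 and −0.0056 for Irgq.

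The guanylate-binding proteins (GBPs) are large interferon-inducible GTPases that act on the same vacuoles. Of 9 tested GBP genes 5 rose and 0 fell, against 15% and 37.9% of all tested genes, with a median log2 difference of 1.54 beside −0.25. Gbp3 went from 21.2 ± 6.42 to 121 ± 27.9 TPM (SD, n = 5 each; log2 difference 2.47, SE 0.22) and Gbp2 from 25.9 ± 9.63 to 157 ± 76.7 TPM (2.42, SE 0.31). Gbp6, Gbp7 and Gbp4 rose by 2.33, 1.56 and 1.54 on the log2 scale, the last with overlapping libraries and the largest adjusted p of the 5 (0.019 by limma). In the first experiment alone 4 and in the second alone 3 GBP genes were called higher, against 12% and 3.51% of all genes. With quantile normalization 9 of 9 were, where 30% of all genes were called higher.

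Of 21 tested genes of the interferon signalling route 4 rose and 7 fell, shares near the 15% and 37.9% of all tested genes. The split became 9 and 5 with quantile normalization, where all genes split 30% and 20.5%, and 7 and 7 with median-of-ratios scaling, where they split 24.2% and 31.4%. Both ligands listed, Ifng and Ifnb1, were under 1 TPM in every library, and the highest value was 0.144 TPM for Ifng. Ciita, the switch of MHC class II genes, rose by 1.49 (SE 0.33) from a mean of 0.921 TPM. Irf8, a myeloid regulator that with Irf1 can switch on IRG genes, fell by 2.08 on the log2 scale (33.9 ± 10.5 to 7.92 ± 4.92 TPM, n = 5 each). Irf2, which counters Irf1, fell by 1.46, Ifnar1, a chain of the type I interferon receptor, fell by 1.29, and Socs3, a feedback inhibitor of cytokine receptors, fell by 1.25. Irf7 (0.73) and Usp18 (1.14) also rose, and Ifngr2 (−1.24), Jak1 (−0.61) and Jak2 (−0.43) also fell, these 5 being named once the calls were known. Irf1 itself, the interferon-induced activator, was at 66.7 ± 9.74 TPM in controls and at 92.7 ± 23.4 TPM (SD, n = 5 each) and was not called (log2 difference 0.44, adjusted p = 0.0592 by limma).

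Of 18 type I interferon-stimulated genes that passed the filter, Ifit3 did so only through the controls and is described without a test. Of the other 17, 6 rose and 4 fell (median 0.11), against 15% and 37.9% of all tested genes. With quantile normalization and Ifit3 included the split was 9 and 3, against 30% and 20.5%. Zbp1, a sensor of Z-form nucleic acids, rose by 2.70 (SE 0.33), from 10.2 ± 8.66 to 59.7 ± 18.01 TPM, and Isg15, a ubiquitin-like modifier, rose by 0.98 (SE 0.26). Rsad2, the antiviral enzyme viperin, fell by 1.52 on the log2 scale (6.88 ± 1.24 to 1.78 ± 0.661 TPM). Ifit1, which binds viral RNA, fell by 1.29, and Ddx58, which encodes the RNA sensor RIG-I, fell by 1.27. Ifit3, a relative of Ifit1, had a mean of 2.44 TPM in controls and was under 1 TPM in every library labelled Reg1Δ/Δ. In the first experiment alone 7 genes of the 18 were called higher and 5 lower, against 12% and 38.3% of all tested genes. In the second alone 0 and 2 were called, against 3.51% and 12.3%.

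The LC3 and GABARAP conjugation genes make the ubiquitin-like tags and the enzymes that guide IRG effectors to vacuoles. None of the 13 rose and 9 fell (median −0.56), in libraries where 15% of all tested genes rose and 37.9% fell, although with quantile normalization 1 rose and 6 fell and with median-of-ratios scaling 2 rose and 7 fell. Map1lc3a, an LC3 gene, fell by 1.39 on the log2 scale (10.7 ± 2.25 to 3.43 ± 0.577 TPM, SD, n = 5 each) and Map1lc3b, the LC3 gene with far higher TPM, fell by 0.72. Gabarapl1 and Gabarapl2, of the GABARAP side, fell by 0.65 and 0.57, and the conjugation enzymes Atg10 and Atg7 fell by 0.67 and 0.61, the sign of Atg10 turning with quantile normalization (0.0497). In the first experiment alone 7 and in the second alone 1 of these genes were called lower, against 38.3% and 12.3% of all tested genes.

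**Figure D5:**
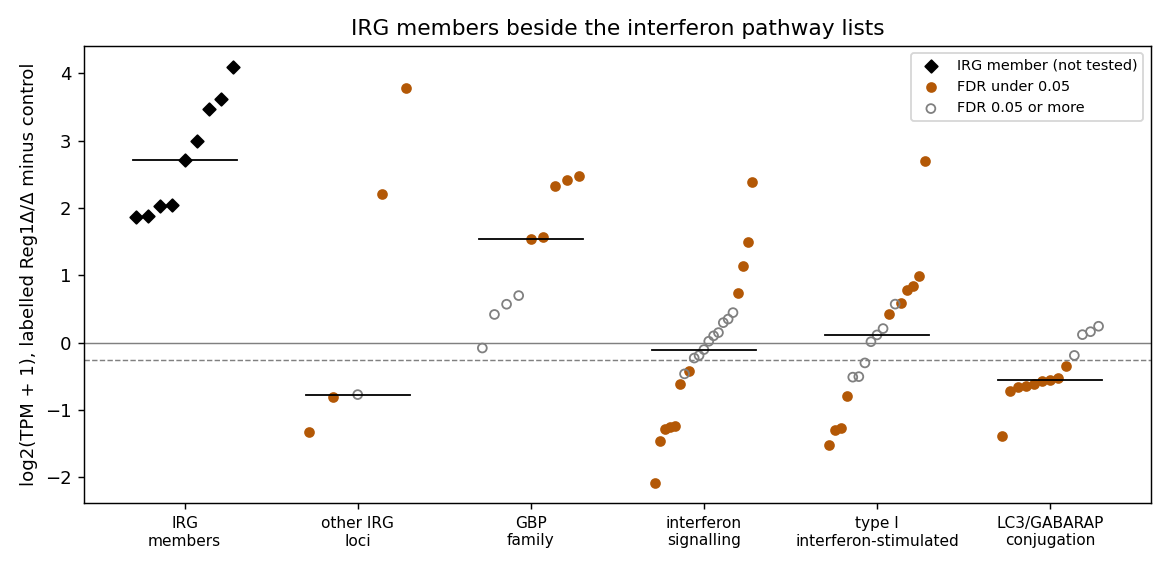
Difference in log2(TPM + 1), libraries labelled Reg1Δ/Δ minus controls, for the 9 members and the tested genes of 5 lists; each point is a gene, short lines are medians, F830016B08Rik and Ifit3 are left out, and the dashed line is the median of all tested genes (−0.25). The GBP list has a median of 1.54 and no called fall, while the signalling and type I interferon-stimulated lists hold called genes on both sides, and the calls of the LC3 and GABARAP list, all falls here, include rises under the other scalings.

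The genes whose pattern was most like that of the family were found by correlating log2(TPM + 1) with the mean of the 9 members over the 10 libraries, the mean of each experiment being removed. Among the genes with the highest values were Lgals9 (Pearson's r = 0.994), which encodes galectin-9, Serbp1 (0.991), Bex4 (0.990), Gdf3 (0.990) and Ndufa5 (0.990). These values rest largely on the difference between the labels that all libraries share. With the mean of each group removed, r was 0.843 for Lgals9 and between 0.509 and 0.631 for the other 4. Lgals9 went from a mean of 589 TPM in controls to 2167 TPM in the libraries labelled Reg1Δ/Δ, and Serbp1 from 736 to 1038 TPM.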

How the data were processed

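RNA-seq values of CD34- HSCs from 5 mice labelled Vav1-iCre; Reg1flox/flox and 5 Reg1flox/flox controls were used. The authors aligned reads to mm10 (GRCm38), estimated transcript abundance with Salmon 0.9.1 (named in the submitters' processing notes) and deposited the log2 of TPM + 1 for each transcript. The labels and the methods name different versions of the cDNA kit. TPM sums to 1000000 in each library and keeps no read numbers, so sequencing depth cannot be stated, and neither counting intervals nor count tests were possible.

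Values were returned to the TPM scale by undoing the logarithm, and the transcripts of a gene were summed. Genes reaching a TPM of 1 in 5 or more libraries were fitted with limma 3.58.1 (lmFit, eBayes; R 4.3.3) on log2(TPM + 1), a scale that understates changes of low genes, with a term for experiment. Adjustment (Benjamini-Hochberg) ran over all 12874 genes, threshold 0.05. The interaction and the contrast of the controls came from a fit of 4 group means. Experiments were taken from the sample names, and p values measure the spread between individual mice. The fit was tested on simulated data. Symbols and coordinates are from GENCODE M21 on GRCm38, and promoters from RefSeq on GRCm38.p6. Genes named are the members, Zc3h12a, up to 6 called genes per list with the largest difference, ligands or receptors under 1 TPM throughout, and the 6 protein-coding genes most like the members; 1 gene of this rule is not reported here. Outside this rule, Irf1, Irf7, Usp18, Ifngr2, Jak1, Jak2, Gm5431, Irgc1 and the cell type markers named were chosen after their values were seen. The members and lists were chosen with earlier results of these data known. Alternatives were no filter, a pseudocount of 0.1, quantile normalization, median-of-ratios scaling, protein-coding transcripts only, no covariate, each experiment alone, a replicate block and each library left out. The search for nucleotide-binding motifs in the proteins was not run, as no protein table was used here. Python 3.11.15 made the tables and plots.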

Additional observations from a re-analysis of the deposited data

How the results depend on the processing

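TPM is relative, and the median log2 difference of all tested genes moved from −0.25 by 0.40 with quantile normalization, 0.17 with median-of-ratios scaling and 0.19 without the filter. Under every alternative run, member values stayed positive, between 1.58 and 4.34 on the log2 scale. The interaction called 0 members in each alternative it was run in. It was not run without the covariate, in each experiment alone or with the replicate block. All genes called higher and lower were 1933 and 4880, against 3861 and 2636 with quantile normalization, 3118 and 4036 with median-of-ratios scaling, and 716 and 3052 without the experiment covariate.

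List counts here include F830016B08Rik and Ifit3, which passed the filter through the libraries of 1 label only. With quantile normalization, 0 of the other IRG loci were lower, 9 GBP and 9 signalling genes were higher, 3 type I interferon-stimulated genes were lower, 1 LC3 and GABARAP gene was higher, and 5 members were higher and 0 lower in the second-experiment controls; the log2 difference of Atg10 became 0.0497. Median-of-ratios scaling gave 7 signalling and 2 LC3 and GABARAP genes higher. Without the covariate, 1 of the other IRG loci was lower, 1 type I interferon-stimulated gene was higher and 4 LC3 and GABARAP genes were lower. In the second experiment alone (2 libraries a group), 0 of the other IRG loci, 3 signalling, 2 type I interferon-stimulated and 1 LC3 and GABARAP genes were lower, and 3 GBP and 0 type I interferon-stimulated genes were higher. In that fit 12.3% of all genes were lower and 3.51% higher. In the contrast of controls, 0 members were lower without the filter and 4 with protein-coding transcripts only. For that contrast the share of all genes called was not worked out under any alternative, so nothing is read from its member counts. With single libraries left out, members higher in the second-experiment controls numbered 0 to 1 and members lower 0 to 1. The 1 higher came without replicate 2 of the first-experiment libraries labelled Reg1Δ/Δ. The cause of these changes was not tested.

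The replicate numbers were not shown to pair the libraries: same-number correlations of deviations from the group means were 0.03, 0.18 and 0.07 for the first and −0.05 for the second set, and not every library correlated best with its own number. The replicate block gave 1703 genes higher and 4545 lower, and list counts within 1.5 times those reported. Among single genes, 33 values kept their direction but lost the call in an alternative. Depth is unknown, so how far it limits low genes such as Gm4951 cannot be given.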
